A study of Mus musculus with 4 samples.

Results

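The genes described here encode C-type lectin receptors and the natural killer (NK) cell lectin-like receptors of the Klr family. They were taken by symbol, after the RefSeq accession of each array probe had been matched to a gene table: every gene beginning with Clec, Klr or Cd209, and also Cd207, Cd69 and Olr1. Of 22911 genes with a named probe, 69 met this rule, and the 40 of these whose probe was well above background on any array are described. On chromosome 6 lay 31 of the 40, 5 were on chromosome 8 and 4 elsewhere.

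RNA came from cells grown out of mouse bone marrow in RPMI1640 with 10% serum, and was labelled from 100 ng for 1-colour arrays. The 4 groups had 1 array each: LysM-St18flox osteoclasts, LysM-St18flox macrophages, wild-type (WT) osteoclasts and WT macrophages. Macrophages were made over 4 days with M-CSF, a growth factor of this lineage, at 25 ng/ml. Osteoclasts, the bone-resorbing cells, were such macrophages kept for a further 3 days in 25 ng/ml M-CSF and 50 ng/ml RANKL, the cytokine that drives their formation, so RANKL and culture time changed together. LysM-St18flox denotes by convention a loxP-flanked St18 gene, encoding a zinc finger transcription factor, with Cre made from the lysozyme M locus, which is active in myeloid cells. The sources used here do not give the number, age or sex of the mice.

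C-type lectin receptors carry a fold that in many members binds sugars, glycolipids or proteins of microbes and of damaged cells. Activating members signal through the adaptors Fcer1g or Tyrobp, or through a motif of their own, to the kinase Syk and the Card9, Bcl10 and Malt1 complex, while inhibitory members recruit phosphatases through an ITIM motif. The Klr genes encode NK receptors of this fold, and the Clec2 (Clr) proteins are ligands for some of them. Syk signalling from Fcer1g and Tyrobp also provides the costimulation that osteoclast formation needs, although other receptors are best known for it.

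Levels are given as normalised log2 signals, on which 0 is the 75th percentile of the array, so they order the 4 arrays for 1 gene but not different genes. A gene is called higher or lower where the difference was at least 2-fold. Where 1 of a pair of arrays was not well above background, the fold is a bound against the higher of the dimmest signal well above background and the dim signal itself, and is written as "at least". With 1 array a group there is no replicate check and no p-value, and precision is bounded by how few arrays there are. For probes spotted 10 times, the SD of a difference between single spots of a probe was 0.04 to 0.06 on the log2 scale. It covers the measurement within arrays and not the spread between cultures or between probes of a gene. In such bulk samples, fewer cells of a type and less RNA per cell cannot be told apart.

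The targeted gene St18 had normalised log2 signals of 1.12 in LysM-St18flox osteoclasts, -1.52 in LysM-St18flox macrophages, 1.55 in WT osteoclasts and 0.30 in WT macrophages. It was thus 3.51-fold lower in LysM-St18flox than in WT macrophages but 1.35-fold lower between the osteoclast arrays, and whether its probe lies in the deleted part was not determined. All 10 osteoclast markers, such as Ctsk and Acp5, were at least 2-fold higher in osteoclasts of both genotypes, and all 7 macrophage markers were above background on all 4 arrays. Between 59.0% and 63.2% of the spots of an array were well above background, and none was saturated.

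Promoters are shown as examples for 5 members, picked after their values were seen, that have an entry in the RefSeq promoter table of build GRCm38.p6. Klra17 and Cd207 were higher and Clec4e lower in osteoclasts of both genotypes, Klra9 was higher in those of LysM-St18flox mice, and Clec2d differed between the genotypes. Each run is the 250 bases before the start of the gene, 5′ to 3′ on its own strand. They lie at chr6:129876673-129876922 (minus strand) for Klra17, chr6:130193113-130193362 (minus) for Klra9, chr6:123289872-123290121 (minus) for Clec4e, chr6:129180365-129180614 (plus) for Clec2d and chr6:83677858-83678107 (minus) for Cd207. Capitals mark matches, on either strand, to motifs of 3 factors known for their part in osteoclast formation. These are the AP-1 motif with the letters TGANTCA, the core of NFAT motifs with the letters GGAAA, and a core of PU.1 motifs with the letters GAGGAA. Where another A follows it, the PU.1 core overlaps the NFAT core.
Klra17: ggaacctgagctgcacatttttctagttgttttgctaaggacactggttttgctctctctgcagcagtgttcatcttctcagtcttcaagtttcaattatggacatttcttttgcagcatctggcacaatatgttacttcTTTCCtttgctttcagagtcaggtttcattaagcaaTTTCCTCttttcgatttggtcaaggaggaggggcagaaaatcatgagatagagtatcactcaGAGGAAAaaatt
Klra9: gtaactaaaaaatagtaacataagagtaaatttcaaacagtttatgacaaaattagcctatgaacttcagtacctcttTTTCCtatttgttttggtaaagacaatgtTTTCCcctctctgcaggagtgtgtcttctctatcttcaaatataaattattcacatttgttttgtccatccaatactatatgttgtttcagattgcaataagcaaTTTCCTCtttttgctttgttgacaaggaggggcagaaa
Clec4e: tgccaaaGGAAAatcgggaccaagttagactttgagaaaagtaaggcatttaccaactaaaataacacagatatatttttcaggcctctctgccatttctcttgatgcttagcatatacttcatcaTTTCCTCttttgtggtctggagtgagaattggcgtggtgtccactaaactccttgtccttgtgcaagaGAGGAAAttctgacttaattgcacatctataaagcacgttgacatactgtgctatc
Clec2d: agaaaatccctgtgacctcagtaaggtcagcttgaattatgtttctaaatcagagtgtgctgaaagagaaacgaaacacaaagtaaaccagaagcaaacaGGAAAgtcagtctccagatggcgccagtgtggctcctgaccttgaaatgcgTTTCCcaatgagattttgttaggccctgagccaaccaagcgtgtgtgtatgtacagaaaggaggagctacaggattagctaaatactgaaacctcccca
Cd207: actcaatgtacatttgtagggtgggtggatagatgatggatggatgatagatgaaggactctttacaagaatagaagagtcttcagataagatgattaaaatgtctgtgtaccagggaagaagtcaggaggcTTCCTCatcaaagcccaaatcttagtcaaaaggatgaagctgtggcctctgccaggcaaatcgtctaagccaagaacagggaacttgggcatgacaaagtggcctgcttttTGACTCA

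Klra17, Klra9 and Clec4e each held 3 matches to GGAAA, and Clec2d held 2. Over all 32851 promoters of this length, 55.6% held GGAAA at least 1 time, 23.3% GAGGAA and 6.75% TGANTCA. The shares with 2 or 3 matches were not computed. The letters of the PU.1 core occurred 2 times in Klra17 and in Clec4e, and 1 time in Klra9 and in Cd207. Of the 5 windows, TGANTCA was found in that of Cd207, 1 time and at its 3′ end. The Klra17 and Klra9 windows aligned locally over 216 bases with 70.8% of the positions identical, and those of Klra9 and Clec4e over 199 bases with 57.3%. Over all pairs of the 5 windows this share ran from 56.4% (Klra9 and Clec2d, 110 bases) to 71.1% (Klra9 and Cd207, 38 bases). A match is a description of the letters and not a binding site.

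**Figure D1:**
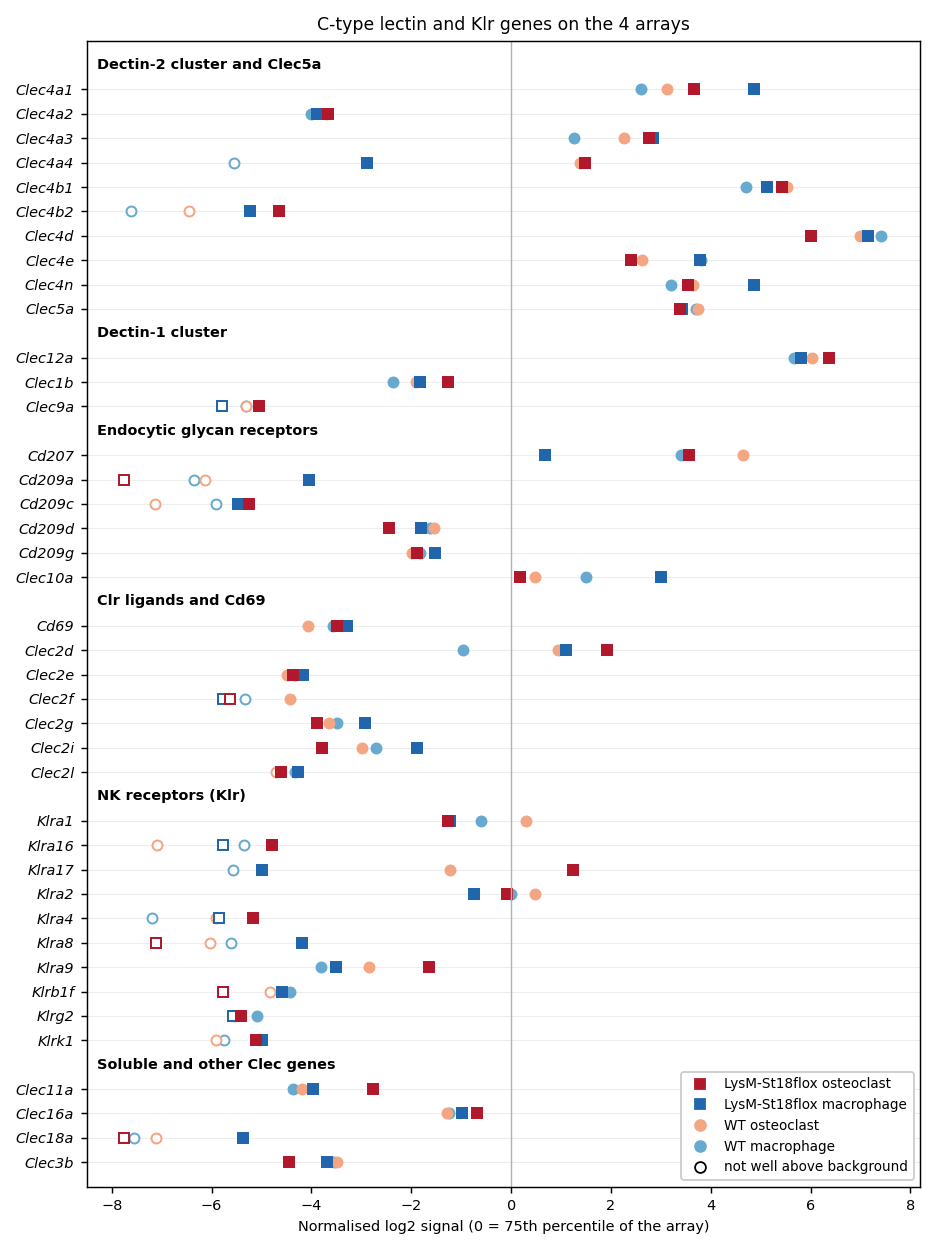
Normalised log2 signal (x axis, 0 is the array's 75th percentile) of the 40 genes, grouped by role, with 1 point for each of the 4 arrays and open symbols where the probe was not well above background. Clec4a4 and Klra17 have their macrophage points far to the left of their osteoclast points, and Cd207 has its LysM-St18flox macrophage point apart from the other 3.

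Osteoclasts were compared with macrophages within each genotype, a comparison in which RANKL and 3 more days of culture cannot be told apart. In LysM-St18flox cells 5 of 39 measured genes (12.8%) were higher in osteoclasts and 8 (20.5%) lower, beside 10.9% and 12.2% of the 15576 genes measured. In WT cells 5 of 30 (16.7%) were higher and 2 (6.67%) lower, beside 5.7% and 7.32% of 14734 genes. The median difference of the measured members was -0.05 in LysM-St18flox and 0.24 in WT cells on the log2 scale, and over all genes -0.02 in LysM-St18flox and 0.00 in WT cells. Clec4a4, Klra17 and Cd207 were higher in osteoclasts of both genotypes, and Clec4e and Clec10a lower. The genotypes were then compared within each cell type. LysM-St18flox macrophages had 8 of 34 measured genes (23.5%) higher and 1 (2.94%) lower than WT macrophages, beside 3.3% and 2.98% of 15161 genes. Of the 8, Clec4a4, Cd209a and Klra8 were bounds. With normexp background correction 5 of 29 were higher and 1 lower, and with both arrays required above background 5 of 27 and 1. Shares of all genes were not computed at these settings. LysM-St18flox osteoclasts had 3 of 31 (9.68%) higher and 3 lower than WT osteoclasts, beside 3.8% and 3.94% of 14614 genes. The median genotype difference of the members was 0.29 in macrophages and 0.09 in osteoclasts, and over all genes -0.02 in macrophages and -0.01 in osteoclasts. After median centring of the arrays, the osteoclast split was 4 higher and 1 lower, and with the percentile taken over probes above background on all arrays it was 3 higher and 5 lower. In at least 1 of the 4 comparisons, 17 of the 40 genes passed 2-fold, and the share of all genes that did so was not computed. The comparisons share arrays, so a single array that differs enters several of them.

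The Dectin-2 cluster on chromosome 6 holds the receptors of microbial sugars and glycolipids that couple to Fcer1g, beside inhibitory receptors of the DCIR type. With Clec5a, which signals through Tyrobp, all 10 named genes of the group were described and 8 were above background on all 4 arrays. In the order of the gene table, Clec4a1, Clec4a3, Clec4a4, Clec4b1, Clec4a2, Clec4b2, Clec4n, Clec4d and Clec4e follow each other among the members, and each was above background on at least 1 array. Near-identical copies in this cluster may share probes, so the identity of a single Clec4a or Clec4b gene is uncertain.

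Clec4a4 encodes DCIR2, an inhibitory receptor known from a class of mouse dendritic cells. Its normalised log2 signal was 1.48 in LysM-St18flox osteoclasts, -2.89 in LysM-St18flox macrophages, 1.38 in WT osteoclasts and -5.55, not well above background, in WT macrophages. The osteoclast arrays were thus alike and high, and the 2 macrophage arrays lay far below them. Clec4a4 was 20.6-fold higher in osteoclasts than in macrophages of LysM-St18flox mice, and at least 104-fold higher in WT osteoclasts than in WT macrophages. LysM-St18flox macrophages had at least 5.39-fold more signal than WT macrophages, while the osteoclasts of the genotypes differed 1.07-fold. With normexp background correction the WT osteoclast-macrophage difference was 4.54 on the log2 scale, against 6.70 as reported, so the size of this fold depends on the background. The genotype difference between macrophages was then 0.78, under 2-fold.

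Clec4a1 and Clec4a3, a pair of genes next to each other and related to Clec4a4, differed between the macrophage arrays. Clec4a1 had 3.67 in LysM-St18flox osteoclasts, 4.87 in LysM-St18flox macrophages, 3.13 in WT osteoclasts and 2.61 in WT macrophages. Clec4a3 had 2.76 in LysM-St18flox osteoclasts, 2.84 in LysM-St18flox macrophages, 2.27 in WT osteoclasts and 1.26 in WT macrophages. Both had their lowest signal in WT macrophages. In LysM-St18flox macrophages Clec4a1 was 4.79-fold and Clec4a3 2.97-fold higher than in WT macrophages, and in osteoclasts the genotypes differed by 1.46-fold and 1.40-fold. Clec4a1 was 2.29-fold lower in osteoclasts than in macrophages of LysM-St18flox mice, while in WT cells it was 1.44-fold higher in osteoclasts. Clec4a3 was 2.01-fold higher in WT osteoclasts than in WT macrophages, a value that came to 0.94 on the log2 scale, under 2-fold, after median centring of the arrays.

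Clec4n encodes Dectin-2, which binds fungal mannans. Its normalised log2 signal was 3.55 in LysM-St18flox osteoclasts, 4.87 in LysM-St18flox macrophages, 3.65 in WT osteoclasts and 3.20 in WT macrophages. The LysM-St18flox macrophage array stood above the other 3, which lay within 0.45 of each other. Clec4n was 3.18-fold higher in LysM-St18flox than in WT macrophages and 1.07-fold lower in LysM-St18flox than in WT osteoclasts. It was 2.50-fold lower in osteoclasts than in macrophages of LysM-St18flox mice.

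Clec4e encodes Mincle, the receptor of mycobacterial cord factor, and Clec4d its partner MCL. Clec4e had 2.40 in LysM-St18flox osteoclasts, 3.78 in LysM-St18flox macrophages, 2.63 in WT osteoclasts and 3.80 in WT macrophages. Both osteoclast arrays were below both macrophage arrays, by 2.59-fold in LysM-St18flox and 2.25-fold in WT cells, and the genotypes differed by 1.17-fold at most. Clec4d had 6.01 in LysM-St18flox osteoclasts, 7.16 in LysM-St18flox macrophages, 6.98 in WT osteoclasts and 7.42 in WT macrophages. It was 2.22-fold lower in osteoclasts than in macrophages of LysM-St18flox mice and 1.35-fold lower in WT, and after median centring of the arrays the first of these was -0.98 on the log2 scale, under 2-fold.

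Clec4b1 encodes an activating receptor of the same cluster, DCAR. Its brighter probe had 5.43 in LysM-St18flox osteoclasts, 5.13 in LysM-St18flox macrophages, 5.53 in WT osteoclasts and 4.71 in WT macrophages, with no difference of 2-fold. A second probe gave 0.13 in LysM-St18flox osteoclasts, 1.77 in LysM-St18flox macrophages, 0.27 in WT osteoclasts and 0.63 in WT macrophages. The probes disagreed by 1.94 on the log2 scale in the LysM-St18flox osteoclast-macrophage difference, the most of the 9 genes with a second probe above background, whose median disagreement was 0.17. Clec5a encodes MDL-1, a Tyrobp-coupled receptor of myeloid cells. It had 3.38 in LysM-St18flox osteoclasts, 3.42 in LysM-St18flox macrophages, 3.75 in WT osteoclasts and 3.71 in WT macrophages, so that no comparison passed 1.29-fold. Clec4a2, the inhibitory DCIR gene, lay between -4.01 and -3.67 on the 4 arrays, and Clec4b2 was above background on the LysM-St18flox arrays only, at -4.66 in osteoclasts and -5.24 in macrophages.

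The Dectin-1 cluster had 3 of 6 named genes above background and none at 2-fold in any comparison. Clec12a encodes MICL, an inhibitory receptor that recognises uric acid crystals. It had 6.37 in LysM-St18flox osteoclasts, 5.81 in LysM-St18flox macrophages, 6.02 in WT osteoclasts and 5.66 in WT macrophages. Its largest difference was 1.47-fold, higher in osteoclasts than in macrophages of LysM-St18flox mice. Clec1b, the podoplanin receptor CLEC-2 known from platelets, lay between -2.38 and -1.27, and Clec9a, a receptor for dead cells on dendritic cells, was above background in LysM-St18flox osteoclasts only, at -5.06. Clec1a, Clec12b and Olr1 were not well above background on any array, and Clec7a, the gene of Dectin-1, was not analysed here.

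Of 11 named genes of endocytic receptors for glycans, 6 were above background. Cd207 encodes langerin, the mannose receptor that forms the Birbeck granules of Langerhans cells. Its normalised log2 signal was 3.56 in LysM-St18flox osteoclasts, 0.68 in LysM-St18flox macrophages, 4.64 in WT osteoclasts and 3.41 in WT macrophages. The LysM-St18flox macrophage array was the low one, and in each genotype osteoclasts were above macrophages. Cd207 was 7.33-fold higher in osteoclasts than in macrophages of LysM-St18flox mice and 2.36-fold higher in those of WT mice. It was 6.59-fold lower in LysM-St18flox than in WT macrophages and 2.12-fold lower in LysM-St18flox than in WT osteoclasts. The osteoclast value was -0.84 on the log2 scale, under 2-fold, after median centring of the arrays. Of the 2 other Langerhans cell markers, Epcam was above background in LysM-St18flox osteoclasts only, at -4.94, and Cdh1 lay between -4.01 and -3.04.

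Clec10a encodes MGL1, the galactose-type lectin that marks alternatively activated macrophages. It had 0.17 in LysM-St18flox osteoclasts, 3.00 in LysM-St18flox macrophages, 0.47 in WT osteoclasts and 1.51 in WT macrophages. Macrophages were above osteoclasts in each genotype, and LysM-St18flox macrophages above WT macrophages. Clec10a was 7.08-fold lower in osteoclasts than in macrophages of LysM-St18flox mice and 2.05-fold lower in those of WT mice, the last value being -0.82 with normexp background correction and -0.74 with the median over its probes. LysM-St18flox macrophages had 2.81-fold more than WT macrophages, and LysM-St18flox osteoclasts 1.23-fold less than WT osteoclasts. A dimmer second probe gave a WT osteoclast-macrophage difference of -0.45, under 2-fold, and a macrophage genotype difference of 1.33 on the log2 scale.

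The Cd209 genes encode mouse relatives of the adhesion receptor DC-SIGN. Cd209a was well above background in LysM-St18flox macrophages only, at -4.05 against -7.75 in LysM-St18flox osteoclasts, -6.14 in WT osteoclasts and -6.35 in WT macrophages. LysM-St18flox osteoclasts had at least 2.74-fold less than LysM-St18flox macrophages, which had at least 2.42-fold more than WT macrophages. Both are differences near background, and with the median over its probes both were under 2-fold. Cd209d lay between -2.45 and -1.54 and Cd209g between -1.99 and -1.52, with no difference of 2-fold. Cd209c was above background on the LysM-St18flox arrays only, at -5.25 in osteoclasts and -5.48 in macrophages, while Cd209b, Cd209e, Cd209f, Clec4f and Clec4g were below it on every array.

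The Clec2 genes encode the Clr proteins, ligands of NK receptors, and were taken with Cd69, an early activation marker that holds lymphocytes in tissues. Of 9 named genes 7 were above background. Clec2d encodes Clr-b, also known as osteoclast inhibitory lectin because it blocks osteoclast formation in culture, and a ligand of an inhibitory NK receptor. Its signal was 1.93 in LysM-St18flox osteoclasts, 1.096 in LysM-St18flox macrophages, 0.95 in WT osteoclasts and -0.96 in WT macrophages. The WT macrophage array was the lowest and the LysM-St18flox osteoclast array the highest. Clec2d was 3.74-fold higher in WT osteoclasts than in WT macrophages, and 1.78-fold higher in osteoclasts than in macrophages of LysM-St18flox mice. It was 4.15-fold higher in LysM-St18flox than in WT macrophages and 1.97-fold higher in LysM-St18flox than in WT osteoclasts. A second probe gave 2.02 and 0.93 for these genotype differences on the log2 scale.

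Clec2i encodes Clr-g, a ligand of other NK receptors. It had -3.78 in LysM-St18flox osteoclasts, -1.88 in LysM-St18flox macrophages, -2.98 in WT osteoclasts and -2.70 in WT macrophages. The LysM-St18flox arrays were the lowest and the highest of the 4, with both WT arrays between them. Clec2i was 3.75-fold lower in osteoclasts than in macrophages of LysM-St18flox mice, against 1.21-fold in WT. Clec2f, of the same family, was above background in WT osteoclasts only, at -4.42, and LysM-St18flox osteoclasts had at least 2.11-fold less, a call that was lost in 3 of its 6 alternatives. Clec2g was 1.93-fold lower in osteoclasts than in macrophages of LysM-St18flox mice. Clec2e, Clec2l and Cd69, which lay between -4.71 and -3.29, passed 1.49-fold in no comparison, and Clec2h and Clec2m were not above background.

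Most Klr genes were dark: 10 of 27 were above background and 3 on all 4 arrays. Among the 17 others were Klrd1, Klrc1, Klrb1c and Klre1, which mark NK cells, and Klrb1b, whose product binds Clr-b. The NK markers Ncr1, Gzmb, Eomes, Il2rb, Xcl1 and Cd160 were not above background on any array either. The other 4 of the 10 markers were above it on some array. Prf1 was so on all 4 arrays, at -1.467 to -1.075, Nkg7 and Gzma on 2 and Tbx21 on 1. The summed signal of the 10 NK markers, in units of the array's 75th percentile, was 0.534 in LysM-St18flox osteoclasts, 0.524 in LysM-St18flox macrophages, 0.581 in WT osteoclasts and 0.480 in WT macrophages. Prf1 carried most of these sums, and no measured marker differed 2-fold. Many of the Klra (Ly49) genes, though not all, are close copies of each other. A probe may thus detect more than 1 of them, and the identity of a single Klra gene is uncertain.

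Klra17 encodes Ly49Q, an inhibitory receptor of MHC class I known, unlike most Ly49 receptors, from myeloid and plasmacytoid dendritic cells. Its normalised log2 signal was 1.24 in LysM-St18flox osteoclasts, -4.998 in LysM-St18flox macrophages, -1.23 in WT osteoclasts and -5.57, not well above background, in WT macrophages. Both osteoclast arrays were far above both macrophage arrays, which were near background. Klra17 was 75.3-fold higher in osteoclasts than in macrophages of LysM-St18flox mice and at least 17.0-fold higher in those of WT mice. With normexp background correction these differences were 4.50 and 1.98 on the log2 scale, still over 2-fold. LysM-St18flox osteoclasts had 5.53-fold more than WT osteoclasts, and a second probe gave 2.24 for this difference on the log2 scale. The members next to it on the chromosome, Klrh1 and Klra5, were not above background. Of the 8 dendritic cell markers, 7 were above background on some array, with summed signals of 107 in LysM-St18flox osteoclasts, 103 in LysM-St18flox macrophages, 148 in WT osteoclasts and 166 in WT macrophages. Siglech carried most of these sums, by 1 of its 2 probes, and the other was not well above background on any array. Siglech, which plasmacytoid dendritic cells and some macrophages make, was 1.01-fold higher in osteoclasts than in macrophages of LysM-St18flox mice and 1.13-fold lower in those of WT mice. Zbtb46, the transcription factor of classical dendritic cells, was above background on the LysM-St18flox arrays only, at -5.04 in osteoclasts and -4.97 in macrophages. Flt3, on the same list, was also above background on these arrays only, at -4.34 in osteoclasts and -5.22 in macrophages. Ccr7 was above background on all 4 arrays, at -3.725 to -3.319. Itgax, an integrin of dendritic cells that macrophages and osteoclasts also make, was 5.77-fold higher in osteoclasts than in macrophages of LysM-St18flox mice and 1.96-fold higher in those of WT mice. Batf3, a transcription factor of dendritic cells, was 7.70-fold lower in osteoclasts than in macrophages of LysM-St18flox mice and 3.25-fold lower in those of WT mice. Between the macrophage arrays Xcr1 was at least 3.57-fold lower in LysM-St18flox. The part of such cells in the Klra17 and Clec4a4 signals was not tested.

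Klra9 encodes the inhibitory receptor Ly49I. It had -1.65 in LysM-St18flox osteoclasts, -3.51 in LysM-St18flox macrophages, -2.84 in WT osteoclasts and -3.80 in WT macrophages. Osteoclasts were above macrophages by 3.62-fold in LysM-St18flox and 1.95-fold in WT cells, and LysM-St18flox osteoclasts above WT osteoclasts by 2.28-fold. The last value was 0.66 on the log2 scale with normexp background correction, under 2-fold. Klra1, the gene of Ly49A, had -1.27 in LysM-St18flox osteoclasts, -1.22 in LysM-St18flox macrophages, 0.29 in WT osteoclasts and -0.61 in WT macrophages. It was 2.95-fold lower in LysM-St18flox than in WT osteoclasts and 1.52-fold lower in LysM-St18flox than in WT macrophages. Klra17 and Klra9 were thus higher and Klra1 lower in the LysM-St18flox osteoclast array than in the WT one.

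Klra2 encodes Ly49B, an inhibitory receptor known from myeloid cells. It had -0.08 in LysM-St18flox osteoclasts, -0.75 in LysM-St18flox macrophages, 0.48 in WT osteoclasts and -0.01 in WT macrophages, with 1.67-fold as the largest difference. The brightest probe of Klra8, the gene of Ly49H, was above background in LysM-St18flox macrophages only, at -4.19. By this probe LysM-St18flox osteoclasts had at least 2.47-fold less than LysM-St18flox macrophages, which had at least 2.19-fold more than WT macrophages. Of its 2 other probes, one was above background in LysM-St18flox osteoclasts only, at -5.41, and one in LysM-St18flox macrophages only, at -4.99, so the probes disagree on the direction, and with the median over its probes the macrophage difference was 0.33 on the log2 scale. Klra4, Klra16, Klrb1f, Klrg2 and Klrk1, the last encoding the stress receptor NKG2D, were above background on 1 or 2 arrays at -5.42 to -4.43 and passed 2-fold in no comparison.

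Soluble and other Clec genes had 4 of 6 above background. Clec11a encodes osteolectin, a secreted factor that promotes bone formation. It had -2.76 in LysM-St18flox osteoclasts, -3.97 in LysM-St18flox macrophages, -4.19 in WT osteoclasts and -4.36 in WT macrophages. The LysM-St18flox osteoclast array stood above the other 3, by 2.31-fold over LysM-St18flox macrophages and 2.70-fold over WT osteoclasts. Both calls were lost with normexp background correction, at 0.77 and 0.63 on the log2 scale. Clec16a, which encodes an endosomal protein of autophagy, lay between -1.29 and -0.69. Clec3b, the gene of the plasminogen-binding protein tetranectin, lay between -4.46 and -3.49, and Clec18a was above background in LysM-St18flox macrophages only, at -5.38.

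**Figure D2:**
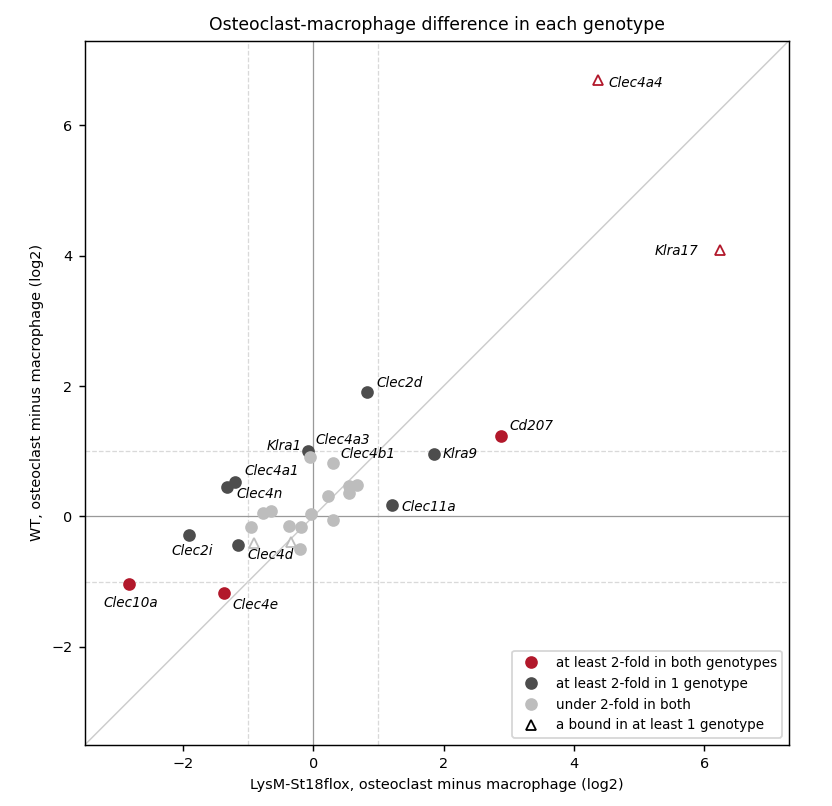
Osteoclast minus macrophage difference (log2) in LysM-St18flox cells (x axis) and WT cells (y axis) of each gene with a value in both, with triangles for bounds, dashed lines at 2-fold and the diagonal of equal differences. Clec4a4, Klra17 and Cd207 lie beyond 2-fold at the upper right and Clec10a and Clec4e at the lower left, while Clec4a1 and Clec4n lie left of 0 on the x axis and above 0 on the y axis.

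The osteoclast-macrophage difference was then set side by side between the genotypes for the 25 members above background on all 4 arrays. It was lower in LysM-St18flox than in WT cells for 17 of the 25 and higher for 8, beside 6256 lower and 7415 higher of 13671 genes. The median was -0.22 on the log2 scale for the members and 0.04 for all genes. The differences departed from each other by at least 2-fold in 8 of the 25 (32.0%), beside 7.9% of all genes. Lower in LysM-St18flox were Clec10a by -1.79, Clec4n by -1.77, Clec4a1 by -1.72, Clec2i by -1.62, Clec4a3 by -1.08 and Clec2d by -1.07. Higher in LysM-St18flox were Cd207 by 1.64 and Clec11a by 1.04. Each of the 6 lower ones had a higher signal in LysM-St18flox than in WT macrophages, by 0.83 for Clec2i and 1.49 to 2.26 for the others, and Cd207 had a lower one by 2.72. The LysM-St18flox macrophage array enters both the difference within the genotype and that between macrophages, so these are not separate observations. After median centring of the arrays, which moved the median of all genes to 0.28, 4 were lower and 3 higher, and with the percentile over probes above background on all arrays 7 were lower and 1 higher.

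**Figure D3:**
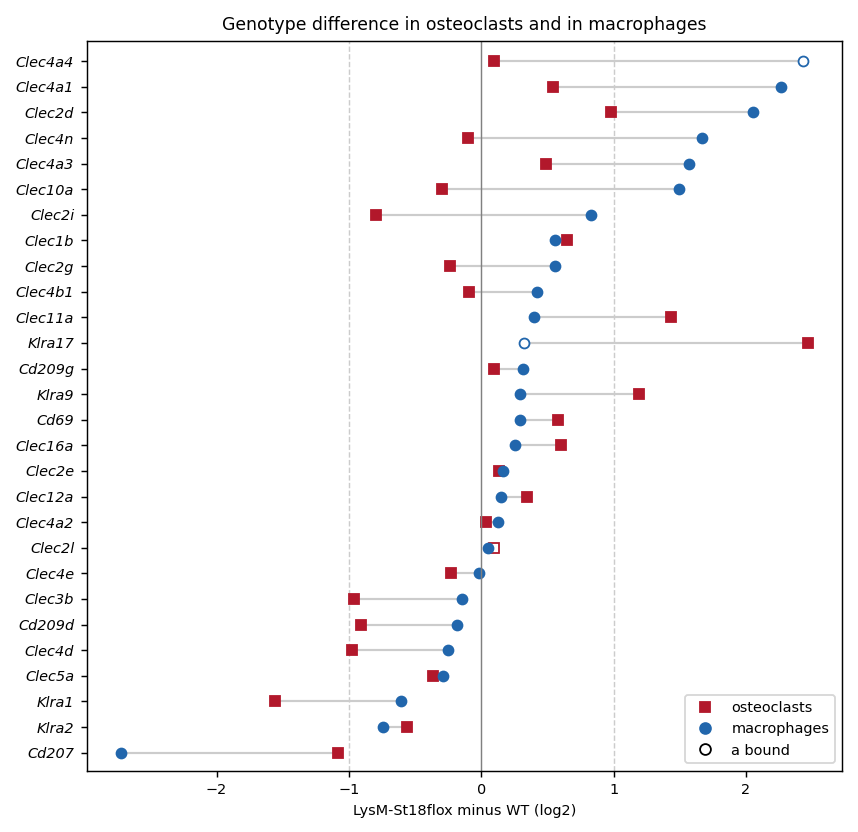
LysM-St18flox minus WT difference (log2) in osteoclasts (squares) and macrophages (circles) for the members above background on at least 3 arrays, ordered by the macrophage value, with open symbols for bounds and dashed lines at 2-fold. Clec4a4, Clec4a1, Clec2d, Clec4n, Clec4a3 and Clec10a lie beyond 2-fold in macrophages and within it in osteoclasts, and Cd207 is the lowest at -2.72 in macrophages.

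Markers of other cells are set beside the genotype differences. The 8 named neutrophil markers, cells in which the lysozyme M locus is also active and which make Clec4d, Clec4e and Clec5a, summed to 7.55 in LysM-St18flox osteoclasts, 15.1 in LysM-St18flox macrophages, 9.50 in WT osteoclasts and 13.0 in WT macrophages. In LysM-St18flox cells 4 of these 8 were lower in osteoclasts, beside 12.2% of all genes, and none higher. In WT cells none was lower and Cxcr2 was at least 2.13-fold higher, and none of the 8 differed 2-fold between the genotypes. The 6 named T cell markers, of which Cd3g and Cd8a were not above background, summed to 3.22 in LysM-St18flox osteoclasts, 3.70 in LysM-St18flox macrophages, 2.39 in WT osteoclasts and 3.13 in WT macrophages. The macrophage markers summed to 507 in LysM-St18flox osteoclasts, 720 in LysM-St18flox macrophages, 466 in WT osteoclasts and 784 in WT macrophages, and the osteoclast markers to 987 in LysM-St18flox osteoclasts, 11.1 in LysM-St18flox macrophages, 767 in WT osteoclasts and 13.0 in WT macrophages. The macrophage sum was carried by Csf1r and Cd68. Lower in osteoclasts than in macrophages were 4 of the 7 macrophage markers in LysM-St18flox cells and 3 in WT cells, beside 12.2% and 7.32% of all genes. Between the macrophage arrays 1 of the 7 macrophage markers was higher in LysM-St18flox and none lower, beside 3.3% and 2.98% of all genes. This was Mertk, a receptor for dying cells, 3.16-fold higher, the direction of Clec10a, Clec4n and Clec4a1. The other macrophage markers lay between -0.396 (Csf1r) and 0.296 (Marco) on the log2 scale. In the same comparison 2 of 9 measured osteoclast markers were lower in LysM-St18flox and none higher. They were the fusion genes Dcstamp, by 3.50-fold, and Ocstamp, by 2.01-fold, the direction of Cd207. The other measured osteoclast markers lay between -0.425 (Acp5) and 0.933 (Atp6v0d2). Between osteoclast arrays 8 of the 10 osteoclast markers were higher in LysM-St18flox, beside 3.8% of all genes. Lyz2, the locus that drives Cre, was 2.07-fold lower in LysM-St18flox than in WT osteoclasts. The part of these shifts in the receptor differences was not tested.

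The signal partners of the receptors, a list of 26 adaptors, kinases and phosphatases, were all above background on at least 1 array. In LysM-St18flox cells 3 of 26 were higher in osteoclasts than in macrophages and 3 lower, beside 10.9% and 12.2% of all genes, and in WT cells 3 of 25 were higher and 1 lower, beside 5.7% and 7.32%. Fcer1g, the adaptor of the Dectin-2 cluster, had 6.73 in LysM-St18flox osteoclasts, 7.76 in LysM-St18flox macrophages, 6.62 in WT osteoclasts and 7.69 in WT macrophages. It was lower in osteoclasts by 2.04-fold in LysM-St18flox and 2.10-fold in WT cells, as was Clec4e, whose product it carries. Tyrobp, the adaptor of Clec5a, was 1.14-fold lower in osteoclasts than in macrophages of LysM-St18flox mice and 1.46-fold lower in those of WT mice. Syk, the kinase both adaptors use, was higher by 1.14-fold in LysM-St18flox and 1.21-fold in WT osteoclasts.

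The kinases of the Src family moved further. Src, which builds the resorbing border of osteoclasts, had 1.92 in LysM-St18flox osteoclasts, -3.64 in LysM-St18flox macrophages, 0.63 in WT osteoclasts and -3.58 in WT macrophages, which made it 47.1-fold higher in LysM-St18flox and 18.4-fold higher in WT osteoclasts. Fgr was higher by 4.16-fold in LysM-St18flox and 3.99-fold in WT osteoclasts, and Malt1, the protease of the Card9 complex, by 4.11-fold in LysM-St18flox and 3.38-fold in WT osteoclasts. Card9 was 1.40-fold lower in osteoclasts than in macrophages of LysM-St18flox mice and 1.14-fold higher in WT osteoclasts than in WT macrophages. In LysM-St18flox cells Hcst, the adaptor of Klrk1, differed by -1.003 on the log2 scale, lower in osteoclasts than in macrophages, and Rubcn, a regulator of autophagy, was 2.53-fold lower.

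Between the genotypes, in macrophages 1 of 26 was higher in LysM-St18flox and 1 lower, beside 3.3% and 2.98% of all genes, and in osteoclasts 3 were higher and 1 lower, beside 3.8% and 3.94%. Vav2, an exchange factor, was 2.53-fold lower in LysM-St18flox than in WT macrophages and 2.19-fold lower in LysM-St18flox than in WT osteoclasts. Src was 2.46-fold and Lcp2, an adaptor below Syk, 2.16-fold higher in LysM-St18flox than in WT osteoclasts. Zap70, the T cell relative of Syk, was above background on the LysM-St18flox arrays only, at least 2.28-fold higher in macrophages and at least 2.48-fold in osteoclasts.

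**Figure D4:**
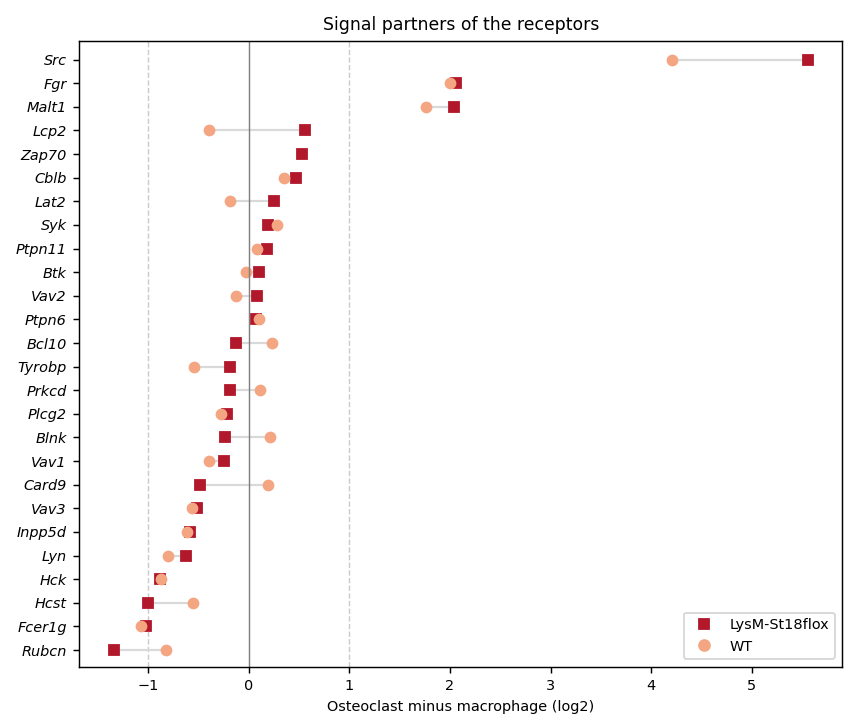
Osteoclast minus macrophage difference (log2) of the 26 signal partners in LysM-St18flox cells (squares) and WT cells (circles), with dashed lines at 2-fold. Src, Fgr and Malt1 lie above 2-fold in both genotypes and Fcer1g below it, while Tyrobp and Syk lie within it, and Zap70 has no WT value because neither WT array was above background.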

How the data were processed

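Total RNA of 4 cultures, 1 per group, was hybridised to Agilent 1-colour arrays and, per the submitters' processing notes, the images were quantified in Agilent Feature Extraction 11.0.1.1. The deposited scanner files hold a processed intensity per spot, background-subtracted per the file headers. The flags for spots well above background, deposited as values of another kind (0 or 1), were used as given. The authors' deposited table of log2 values holds 30909 probes with a median of 9.39 in every column, and its columns agree to 0.00065 when sorted, so they are quantile-normalized. The sources used here do not say how the authors made it.

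Spots were averaged per probe, put on the log2 scale and reduced by the array's 75th percentile. Of 56605 probes, 32994 were named through RefSeq accessions, and a gene took its brightest probe. A gene was measured where at least 1 of the 2 arrays was well above background in at least 0.5 of its spots. Of 77 symbols meeting the rule in the gene table, 8 had no named probe. All arrays shared 1 slide and 1 scan, so no batch could be separated. Genes named with all 4 values were those at least 2-fold different in any comparison, or above background on all arrays and above the 75th percentile on any, and other members are given by range and count. The genes and lists were chosen with earlier results of these data known. Alternatives were normexp background correction (limma 3.58.1, R 4.3.3, offset 50, on the deposited median spot intensity because no mean signal was given), other scalings and filters, the authors' table and a 1.5-fold threshold. Calculations used Python 3.11.15 with numpy 2.4.6 and pandas 2.3.3, and were checked on simulated data.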

Additional observations from a re-analysis of the deposited data

Results flagged for a closer look

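Some genes moved in opposite directions in the groups compared, each over 1 array a group, so the difference between the groups was not tested. The osteoclast minus macrophage difference of Clec4a1 was -1.196 (log2) in LysM-St18flox cells and 0.522 in WT cells, that of Clec4n was -1.324 in LysM-St18flox and 0.449 in WT, and that of Clec4a3 was -0.079 in LysM-St18flox and 1.004 in WT. The LysM-St18flox minus WT difference of Clec4n was -0.104 in osteoclasts and 1.67 in macrophages, that of Clec10a was -0.297 in osteoclasts and 1.492 in macrophages, and that of Clec2i was -0.797 in osteoclasts and 0.827 in macrophages. The values under 0.3 in size here are too small to give a direction: after median centring that of Clec4a3 in LysM-St18flox cells was 0.091 and that of Clec4n in osteoclasts 0.146. All of these genes had a higher signal in the LysM-St18flox than in the WT macrophage array, so the 6 values share the macrophage arrays and are not separate observations.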

How the results depend on the processing

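Under the alternatives, 724 values of the named genes were recomputed: 705 stayed within 1.5-fold and 19 moved further. These were 11 of 91 with normexp background correction, 5 with the median over a gene's probes and 3 with no filter on dim probes. Many values could not move. The 84 with both arrays required above background are the reported ones. A gene with 1 probe keeps its value under the median over probes, and a gene above background on both arrays keeps it without the filter. Of the values that were at least 2-fold as reported, 0 changed sign. Among smaller ones 23 did, 9 of them after median centring, and Clec4b1 moved most, to -0.67 (log2) with the median over its probes against 0.30 as reported for LysM-St18flox osteoclasts against macrophages. Of 35 calls of at least 2-fold, 22 held under every alternative that gave a value. With a 1.5-fold threshold the counts of genes called were 20 (13 at 2-fold) for LysM-St18flox osteoclasts against macrophages, 11 (7) for WT osteoclasts against macrophages, 13 (6) for LysM-St18flox against WT osteoclasts and 14 (8) for the difference between these responses. With no filter on dim probes they were 15 for WT osteoclasts against macrophages, 15 (9) for LysM-St18flox against WT macrophages and 14 for LysM-St18flox against WT osteoclasts, over all 69 genes. Shares of all genes were not computed at these settings. With normexp background correction 3 were called between osteoclasts, and the cause was not tested. Centring on array medians moved the median of all genes to 0.15 for LysM-St18flox osteoclasts against macrophages and 0.24 between osteoclasts. The authors' table lists 25 members, and dim genes are not among them. No paired analysis was possible because each group had 1 array and no residual spread. Signal over background limits the Klra, Cd209 and Clec2f values, and no culture was repeated.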

Other observations

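Genes with a C-type lectin domain but other names also differed between osteoclasts and macrophages. Of 32 named, 18 were above background. In LysM-St18flox cells 2 of 17 measured were at least 2-fold higher in osteoclasts and 4 lower, beside 10.9% and 12.2% of all genes, and in WT cells 1 of 16 was higher and 4 lower, beside 5.7% and 7.32%. Mrc1, the macrophage mannose receptor, had 1.36 in LysM-St18flox osteoclasts, 6.06 in LysM-St18flox macrophages, 1.45 in WT osteoclasts and 4.65 in WT macrophages. It was 25.9-fold lower in LysM-St18flox and 9.19-fold lower in WT osteoclasts, and 2.66-fold higher in LysM-St18flox than in WT macrophages. The 4 arrays had the same order for Mrc1 as for Clec10a, with its osteoclast arrays only 1.06-fold apart. Mgl2, of the same list and above background on all 4 arrays, passed 1.38-fold in no comparison. Cd93, a receptor of myeloid and endothelial cells, was lower by 5.38-fold in LysM-St18flox and 2.48-fold in WT osteoclasts. Cd302 was lower by 4.35-fold in LysM-St18flox and 3.07-fold in WT osteoclasts, and Thbd, the gene of thrombomodulin, by 3.75-fold in LysM-St18flox and 2.78-fold in WT osteoclasts.

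Vcan, which encodes the matrix proteoglycan versican, went the other way, at 1.95 in LysM-St18flox osteoclasts, -2.29 in LysM-St18flox macrophages, 2.0 in WT osteoclasts and -2.50 in WT macrophages. It was 19.0-fold higher in LysM-St18flox and 22.6-fold higher in WT osteoclasts than in macrophages. Layn, the gene of a hyaluronan receptor, was 4.32-fold higher in osteoclasts than in macrophages of LysM-St18flox mice and 1.88-fold higher in those of WT mice. Between the genotypes, Asgr2, a subunit of the asialoglycoprotein receptor, was 2.75-fold higher in LysM-St18flox than in WT macrophages, and none of 15 measured genes differed 2-fold between osteoclasts.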
